A study of Schizosaccharomyces pombe with 2 samples.

Results

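The genes described here are 7 hexose transporters of fission yeast (Schizosaccharomyces pombe), ght1, ght2, ght3, ght4, ght5, ght6 and ght8, with inv1, which encodes invertase, and fbp1, which encodes fructose-1,6-bisphosphatase. They were chosen by name, and each was matched to 1 probe, so the group is 9 of the 5057 probes on the array. Their transcripts were compared between a strain lacking mga2, ESY173 (mga2Δ below), and the control strain KGY425 (WT below), both in log phase in complete YES medium and both kept for 1.5 h without oxygen. In the sample labels the control is named wild type, but the series design text describes sre1, which encodes the principal SREBP of this species, as deleted in both strains. None of the sre1 spots was well above background, in mga2Δ or in WT. Mga2 activates transcription of lipid genes, and the series asks how its loss bears on lipid homeostasis and SREBP activation. No culture with oxygen was analysed here, and the sources used here do not state how much glucose the medium held.

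Fission yeast takes up hexoses through the Ght family of membrane transporters, which differ in affinity and in preferred sugar. When glucose is plentiful it keeps genes for other sugars and for gluconeogenesis off. Protein kinase A signalling and the repressor Scr1 hold them down, and they are switched on by activators such as Rst2 and the Atf1-Pcr1 pair. The genes fbp1 and inv1 are the usual reporters of this glucose repression.

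The 2 arrays each compared 1 culture of mga2Δ with 1 of WT as biological replicates in a dye swap, with mga2Δ in Cy5 on array 1 and in Cy3 on array 2. Every probe had 3 spots per array. The share of probes well above background lay between 96.8% and 98.6% over the strains and arrays, and no spot was saturated. The mga2 probe fell in mga2Δ by at least 84.9-fold as a mean of the arrays, the direction its label gives. In mga2Δ 0 of its 3 spots on array 1 and 1 of 3 on array 2 were well above background, against all 3 on each array in WT. Ratios are given below as log2 of mga2Δ over WT, set relative to the bulk of genes on the array, so that a change in total mRNA per cell and a change of single genes cannot be told apart. Each mean and SD is over the 2 arrays, and that number limits the precision. Where the signals of the strains are said not to overlap, this describes 2 values against 2. How often that held over all genes was not counted.

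The hexose transporters did not share one direction in mga2Δ, while inv1 and fbp1 both rose. Of the 9 genes, all of which were bright enough to be tested, 5 were raised (inv1, ght3, fbp1, ght6 and ght2), 1 was lowered (ght8) and 3 did not pass (ght1, ght4 and ght5). Of these, ght6 entered the test only through its mga2Δ signal. Where both channels had to be above background, ght6 was not tested and 4 of the 9 were raised. Over all 4964 genes tested with limma at a Benjamini-Hochberg adjusted p of 0.05, 18.4% were raised and 10.9% lowered. These shares depend on the processing, with 750 raised and 1138 lowered genes from the authors' deposited table and 146 and 26 with median centring. The median ratio was 0.99 over the 9 genes and 0.004 over all genes tested. A ratio of at least 2-fold on both arrays, a measure that needs no test, was found in mga2Δ for 3 of the 9 (inv1, ght3 and fbp1), against 3.61% of all genes tested. None of the 9 was lower by 2-fold on both arrays, which held for 0.524% of all genes. The 9 genes were picked with earlier results of these arrays known, so these counts describe them and do not show that the group stands apart.

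**Figure D1:**
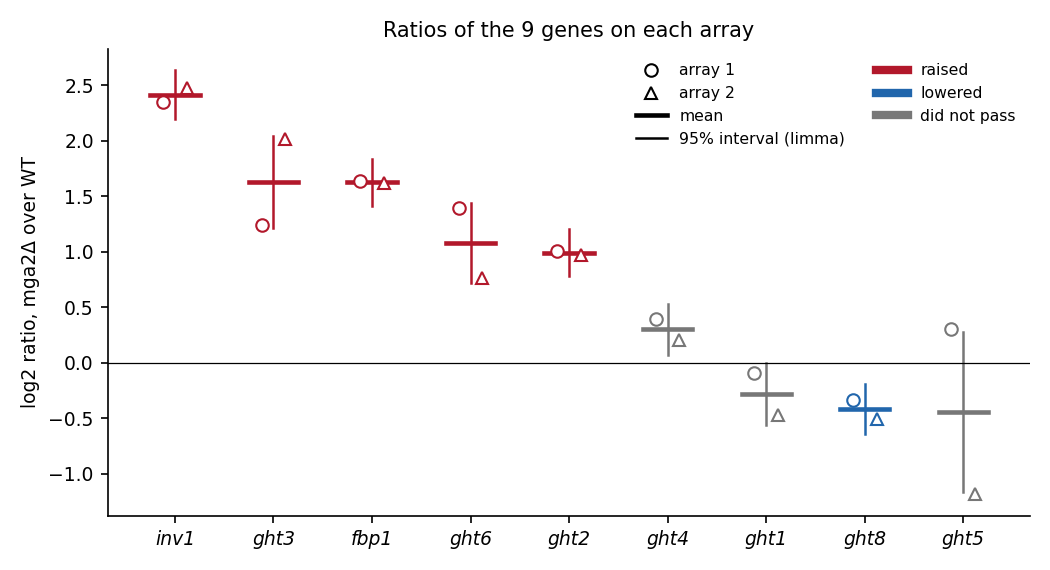
Log2 ratio of mga2Δ over WT for each of the 9 genes, ordered by mean. Circles are array 1, triangles array 2, thick bars the mean of both and thin lines the 95% interval of the limma fit; red marks raised, blue lowered and grey not passed. The ratios run from 2.41 for inv1 to −0.44 for ght5, whose arrays lie on opposite sides of 0.

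Among the transporters, ght3 (SPAC1F8.01, chromosome I) had the highest mean ratio. Its product has been described in fission yeast as a carrier of gluconate. The ght3 signal was low in WT, with medians of 33 and 94 over local backgrounds of 16.5 and 59, but all spots in both strains were well above background. In mga2Δ the medians were 287 and 236, over 58.5 and 13.5. The normalized log2 signal was 7.66 on array 1 and 8.50 on array 2 in mga2Δ, against 6.42 and 6.48 in WT. Both mga2Δ values lay above both WT values. The log2 ratios were 1.24 and 2.01 in the order of the arrays (mean 1.63 ± 0.55, SD, n = 2 arrays), a 3.09-fold rise with a limma adjusted p of 0.000926. The arrays thus differed in size but not in direction, and the spots of array 1 (1.10 to 1.32) did not overlap those of array 2 (1.90 to 2.08). The size of the rise moved with the processing: the mean ratio was 1.92 with no background correction and 2.17 with a smaller offset of 16. It was 3.005 from the signals as processed by the scanner software and 2.63 in the authors' deposited table, which differ in normalization as well. With median centring in place of loess the ratio was 1.61 and did not pass (limma adjusted p = 0.158).

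The other weakly expressed transporter that rose was ght6 (SPCC1235.13, chromosome III), whose product has been reported to favour fructose over glucose. In mga2Δ all 3 spots were well above background on each array, with medians of 252 over 59 and of 61 over 14. In WT no spot was, with medians of 22 over 16 and of 70 over 65.5. The WT level therefore has only a bound, and as a mean of the 2 arrays ght6 was at least 2.04-fold higher in mga2Δ. For that bound the mean mga2Δ signal was divided by the dimmest WT signal still called well above background on the array, or by that of ght6 where higher, after loess and Aquantile normalization of the channels. The measured log2 signals were 7.51 and 6.78 in mga2Δ, against 6.11 and 6.02 in WT. Its call as raised rests on a probe that entered the test only through the mga2Δ signal. The ratios of 1.40 and 0.77 (mean 1.08 ± 0.45, limma adjusted p = 0.00301, n = 2 arrays) lie close to the bound. They did not pass with median centring (1.14, adjusted p = 0.0654) or when tested against 1.5-fold (adjusted p = 0.133). The authors' deposited table gives 4.44 and 2.98 for ght6, so the size of the rise depends on the processing.

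In contrast to these, ght2 (SPBC4B4.08, chromosome II), a glucose transporter, was brightly expressed in both strains and changed by nearly the same amount on both arrays. Its normalized log2 signal was 13.92 and 14.06 in mga2Δ, against 12.92 and 13.08 in WT. The strains did not overlap, and the gap was close to 1 log2 unit each time. The ratios were 1.00 and 0.97 (mean 0.99 ± 0.02, SD, n = 2 arrays, limma adjusted p = 0.000407), a 1.98-fold rise. With median centring ght2 stood at 0.70 and did not pass (limma adjusted p = 0.178).

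The other bright transporter, ght8 (SPCC548.06c, chromosome III), moved the opposite way. Its normalized log2 signal was 13.57 and 13.47 in mga2Δ, against 13.91 and 13.98 in WT. Both mga2Δ values lay below both WT values, by less than 1.5-fold. The ratios were −0.33 and −0.50 (mean −0.42 ± 0.12, SD, n = 2 arrays), with a limma adjusted p of 0.0185. This fall lies near the threshold: it did not pass with spike-in centring (−0.29, adjusted p = 0.0617), median centring (−0.74, adjusted p = 0.209) or 2.81 prior degrees of freedom in place of 5.62 (adjusted p = 0.0658).

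**Figure D2:**
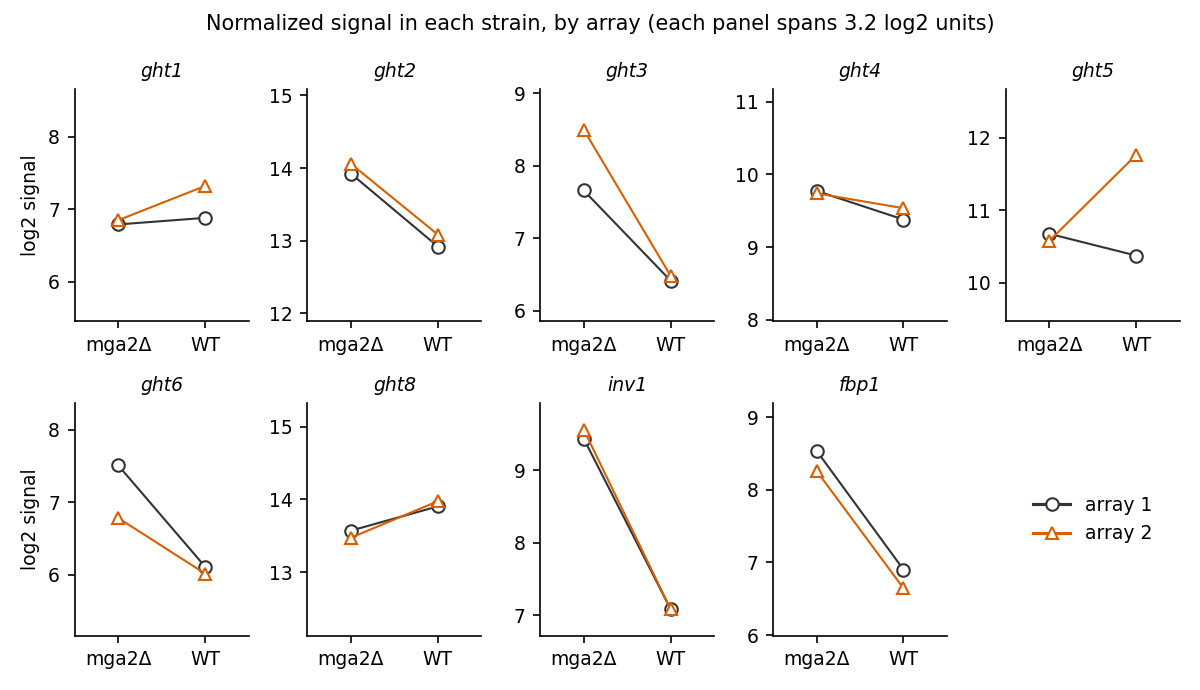
Normalized log2 signal of each gene in mga2Δ (left) and WT (right) after loess and Aquantile normalization, with circles and dark lines for array 1 and triangles and orange lines for array 2. Each panel spans the same number of log2 units, so slopes compare between genes but heights do not. For ght5 the mga2Δ points lie together at 10.68 and 10.58, while the WT points lie apart at 10.37 and 11.76.

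No single direction could be given for ght5 (SPCC1235.14, chromosome III), the high-affinity glucose transporter on which fission yeast depends for growth in low glucose. Its normalized log2 signal was 10.68 and 10.58 in mga2Δ, against 10.37 and 11.76 in WT. The mga2Δ values lay close together, and the WT values did not. Array 1 gave a log2 ratio of 0.30 and array 2 one of −1.19 (mean −0.44 ± 1.05, SD, n = 2 arrays), with a limma adjusted p of 0.313. The spots of each array stood together, from 0.20 to 0.35 on array 1 and from −1.22 to −1.16 on array 2, so spot noise was small beside the gap. Of the 4964 genes tested, ght5 had the sixth largest SD between arrays, where the median SD was 0.098 and only 6 genes reached an SD of 1. Opposite signs on the arrays as such were common and were found for 22.3% of genes tested, most of them near 0. Since the arrays differ in both culture pair and dye orientation, a difference between WT cultures and a dye effect of this probe cannot be told apart here. The interval of the ratio, from −1.17 to 0.28, leaves both a fall and a small rise possible.

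The remaining transporters, ght4 (SPBC1683.08, chromosome II) and ght1 (SPCC548.07c, chromosome III), had small ratios that did not pass. For ght4 the ratios were 0.39 and 0.21 (mean 0.30 ± 0.13, limma adjusted p = 0.0572, n = 2 arrays), with normalized log2 signals of 9.77 and 9.74 in mga2Δ, against 9.38 and 9.53 in WT. The strains did not overlap, but the gap was small. For ght1, with 1 of its 3 spots on array 1 left out as an outlier, the ratios were −0.09 and −0.47 (mean −0.28 ± 0.27, limma adjusted p = 0.113, n = 2 arrays), with log2 signals of 6.79 and 6.85 in mga2Δ, against 6.88 and 7.32 in WT. The ght1 signals of the strains did not overlap either. Both genes passed under some alternatives, ght4 under 6 and ght1 under 5 of the 14 tried, always in the same direction. The ght1 ratio was −0.95 with the authors' deposited table and passed there (limma adjusted p = 0.00229). The 95% intervals were 0.07 to 0.53 for ght4 and −0.56 to −0.01 for ght1, so neither is shown to be unchanged.

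The largest change among the 9 genes was in inv1 (SPCC191.11, chromosome III), the secreted enzyme that splits sucrose into glucose and fructose. Its median spot signals were 1117 and 522.5 in mga2Δ, against 61.5 and 160 in WT, in different dyes on each array. The normalized log2 signal was 9.43 and 9.56 in mga2Δ, against 7.08 on both arrays in WT. The strains were far apart, and each strain gave nearly the same value on both arrays. The ratios were 2.35 and 2.48 (mean 2.41 ± 0.09, SD, n = 2 arrays, limma adjusted p = 1.44e-05), a 5.32-fold rise that ranked 57th from the highest among the 4964 genes tested. It passed under all 14 alternatives, with mean ratios from 2.41 to 3.14.

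The gluconeogenic gene fbp1 (SPBC1198.14c, chromosome II), whose product reverses a committed step of glycolysis, rose by nearly the same amount on both arrays, with 1 of its 3 spots on array 1 left out as an outlier. The fbp1 signal was low in WT, with medians of 55.5 and 106 over local backgrounds of 15.75 and 58. Its normalized log2 signal was 8.54 and 8.26 in mga2Δ, against 6.90 and 6.64 in WT. The strains did not overlap. The ratios were 1.64 and 1.62 (mean 1.63 ± 0.01, SD, n = 2 arrays, limma adjusted p = 5.25e-05), a 3.09-fold rise. It also passed under all 14 alternatives, with mean ratios from 1.63 to 2.60, the highest with the scanner software's processed signals. The reported ratio is at the low end of that range, and with an offset of 16 it was 2.06, so the size of the rise depends on the processing.

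**Figure D3:**
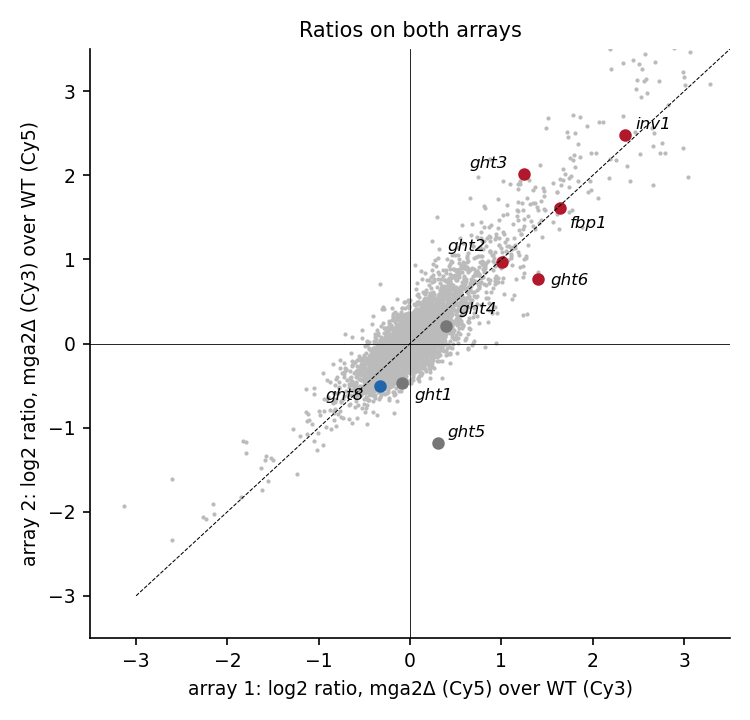
Log2 ratio of mga2Δ over WT on array 1 (x axis) and array 2 (y axis) for the tested genes, in grey, and the 9 genes, coloured as raised (red), lowered (blue) or not passed (grey). The gene mga2 is not drawn and 26 others lie beyond the axes; inv1, fbp1 and ght2 lie on the dashed line of equal ratios, and ght5 lies far from it at 0.30 and −1.19.

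In genome order the transporter genes ght6, ght5, ght8 and ght1 lie in one stretch of chromosome III, with ght8 directly beside ght1. Their ratios did not follow that order: ght6 was raised (at least 2.04-fold as a mean of the arrays), ght8 was lowered (−0.42), and ght5 (−0.44) and ght1 (−0.28) did not pass. Between them, wtf4, of a family of spore-killing genes, was raised (1.05 ± 0.52), while dga1, urm1 and dbl5, the other genes there with a probe, did not pass. On chromosomes I and II, ght3 and ght4 had neighbours with larger ratios than their own, named here after their values were seen. Directly beside ght3 lies shu1, a haem uptake gene (5.78 ± 1.49), followed by the siderophore transporter gene str3 (4.22 ± 1.68), and beside ght4 lies frp1, a ferric reductase gene (3.04 ± 1.91). All 3 neighbours belong to iron and haem uptake and had higher ratios on array 2 than on array 1. The 2 arrays give no pattern to compare between genes, and a link between these neighbours and ght3 or ght4 was not tested. Beside fbp1 lie wwm3 (1.12 ± 0.02) and then wwm2 (1.98 ± 0.32), both raised. Over the 12 tested genes directly beside one of the 9, not counting the 9 themselves, 3 were raised (shu1, frp1 and wwm3). Lowered were 2 (usp102 beside ght2 at −0.46 and SPCC1529.01 beside ght1 at −0.65). Among all genes tested 29.3% were called in either direction, 18.4% as raised and 10.9% as lowered.

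Several other genes of sugar and polyol use rose in mga2Δ. Of 16 genes in a list of alternative carbon sources, all tested, 10 were raised and none was lowered, with a median ratio of 0.56, against 18.4% raised and a median of 0.004 over all genes. With the scanner software's processed signals 1 was lowered, and with the authors' deposited ratios 2 were. The list was chosen with earlier results of these arrays known, so its counts describe it and do not show that it stands apart. The largest rises were in mel1, an alpha-galactosidase (3.05 ± 0.81), dak2, a dihydroxyacetone kinase (2.03 ± 0.76), gal10, of galactose metabolism (1.88 ± 0.17), and sut1, a sucrose and maltose transporter (1.03 ± 0.06), with limma adjusted p-values from 4.86e-05 to 0.00113 (n = 2 arrays). These cover the release of galactose, the phosphorylation of dihydroxyacetone and the uptake of disaccharides. The raised genes gal10 (SPBPB2B2.12c), gal1 (SPBPB2B2.13) and gal7 (SPBPB2B2.10c) belong to one series of locus names. Where the genes of this list lie on the chromosomes was not examined, and a link of location to their ratios was not tested. Those that did not pass were the hexokinase genes hxk1 (−0.08) and hxk2 (−0.06), the malate transporter and malic enzyme genes mae1 (−0.18) and mae2 (0.24), the maltase gene mal1 (0.05) and ght7, a further transporter of the family (−0.14 ± 0.04). With median centring 1 member of the list, gal10, passed, at ratios that for mel1 (3.08), dak2 (2.06) and sut1 (1.01) were about as large.

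Of 28 regulators of the glucose signal, all tested, 6 were raised and none was lowered, with a median ratio of 0.11, against 18.4% raised over all genes tested, so the count is no result about the list. Between 0 and 11 of the 28 were raised over the alternatives. The largest of the 6 rises were in cgs1, the regulatory subunit of protein kinase A (0.87 ± 0.10), and pka1, its catalytic subunit (0.78 ± 0.28). Next were git5, the G protein beta subunit upstream of the kinase (0.69 ± 0.25), and atf1, the stress-activated transcription factor that binds the fbp1 promoter (0.67 ± 0.10). Limma adjusted p-values of these named genes ran from 0.000904 to 0.00561 (n = 2 arrays). The inhibiting and the active subunit of the kinase thus rose together. The repressor gene scr1 (0.21 ± 0.19), the activator genes rst2 (0.35 ± 0.27) and pcr1 (0.07 ± 0.03), and the corepressor genes tup11 (0.10 ± 0.03) and tup12 (−0.01 ± 0.08) did not pass. None of the 28 passed with median centring or when tested against 1.5-fold.

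**Figure D4:**
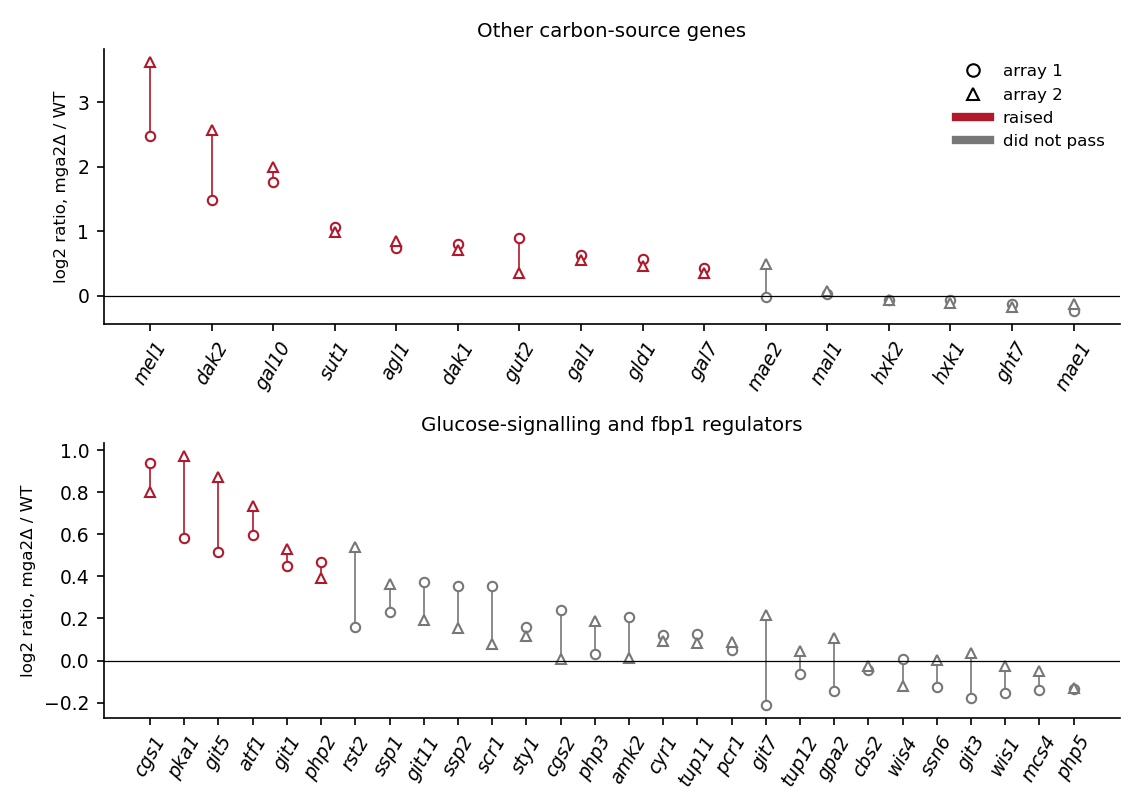
Log2 ratios of mga2Δ over WT on array 1 (circles) and array 2 (triangles) for 16 other carbon-source genes (above) and 28 glucose-signalling genes (below), ordered by mean; red marks raised and grey not passed, and the y axes differ. The carbon-source genes reach 3.05 (mel1) as a mean of the arrays, the signalling genes 0.87 (cgs1).

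The ratios moved by different amounts under other processing. The bright genes ght2 and ght8 had ratios of 0.70 to 1.12 and −0.74 to −0.29, and ght8 did not pass under 4 of the 14 alternatives. The ratio of ght6, below background in WT, ranged from 1.04 to 4.02, that of ght3 from 1.61 to 3.005 and that of fbp1 from 1.63 to 2.60. Alternatives that changed only the test, its threshold or the set of probes left each ratio as reported. In none of those that recomputed the ratios over both arrays did any of the 9 change direction.

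**Figure D5:**
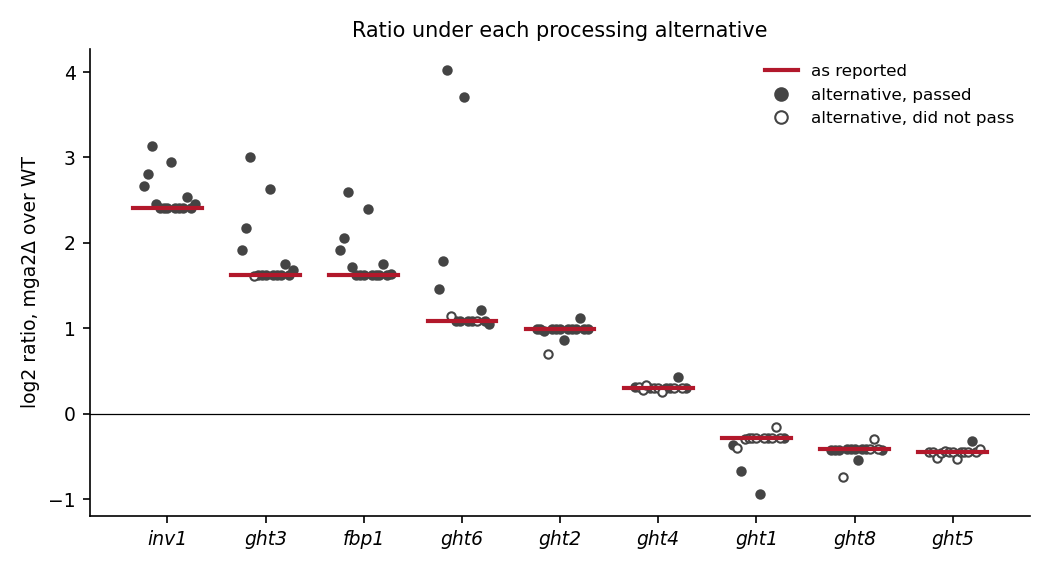
Log2 ratio of mga2Δ over WT of each of the 9 genes as reported (red bars) and under the processing alternatives (filled points passed the test, open points did not), in the order of the mean. The points of ght6 spread upward to 4.02, those of inv1 and fbp1 are all filled, and no gene has points on both sides of 0. Alternatives that changed only the test, its threshold or the set of probes repeat the reported ratio.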

How the data were processed

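Spot intensity values were made with Agilent Feature Extraction 10.5.1.1 (protocol GE2_105_Dec08), per the file headers: median signals of spots and of their local background, and signals processed by the scanner software. The same software wrote a log10 ratio of the processed Cy5 and Cy3 signals for each spot, per the file headers. The authors' deposited table gives a log2 ratio for each probe and array; it correlates with the scanner ratios, turned to mga2Δ over WT, at r = 0.986 on each array, and its medians are −0.078 and −0.115. How it was normalized is not stated in the labels, which name Partek for an unnamed step, per the submitters' processing notes. Each spot also carries flags (other values of 0 and 1), per the file headers. Amplification used 400 ng total RNA and oligo-dT primers, per the labels' protocols.

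Median signals were corrected with normexp (offset 50) and loess within each array, giving no weight to control spots and outlier spots (limma 3.58.1, R 4.3.3). Outlier spots (3.57% and 3.36%) were left out, and spots of a probe were averaged. Array 2 was turned in sign. Probes entered the test where, on each array, 2 or more spots rose well above background in the Cy3 or the Cy5 channel. Ratios were tested against 0, two-sided, with lmFit and eBayes over 4964 probes, leaving 1 residual degree of freedom per gene. The steps were run on simulated data whose spread was taken from this fit, which checks the steps and not the calls made here. Names came from a RefSeq table of assembly ASM294v3 (5021 by locus tag, 3 by alias, 33 not matched), which also gave the gene order. Genes named are the 9, mga2 and up to 4 called genes of each other list with the largest ratios; list members that did not pass, and neighbours, were named after their values were seen. Members and lists were chosen with earlier results of these data known. The arrays share a slide and a scan, so neither could be tested as a batch. Probe and gene sequences were not analysed here, so cross-hybridisation between the related transporters was not tested. The 14 alternatives are given at the end. Figures were drawn with matplotlib 3.10.9 under Python 3.11.15.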

Additional observations from a re-analysis of the deposited data

How the results depend on the processing

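Over the 14 alternatives (13 for ght6) the 9 genes gave 125 ratios, of which 20 crossed the threshold and none changed sign. Requiring signal above background in both channels left ght6 untested and 4 of the 9 raised. Some alternatives changed only the test, its threshold or the set of probes. They left each ratio as reported, so its sign could not change there. With median centring ght2 (0.70), ght3 (1.61), ght6 (1.14) and ght8 (−0.74) no longer passed, which left 2 of the 9 raised and 0 lowered, 146 and 26 of all genes, 1 raised carbon-source gene and 0 raised signalling genes. Tested against 1.5-fold, ght6 (1.08) and ght8 (−0.42) did not pass, 0 of the 9 were lowered, 201 and 31 of all genes were called, and 4 carbon-source and 0 signalling genes were raised. With the prior degrees of freedom set to 2.81 (5.62 as reported), ght8 (−0.42) did not pass, 0 of the 9 were lowered, and 493 and 176 genes were called. Spike-in centring, which moved the median of all genes to 0.13, took ght8 (−0.29) below and ght4 (0.43) and ght5 (−0.32) above the threshold, and called 1412 raised and 263 lowered genes and 11 signalling genes. The prior degrees of freedom of that fit were infinite, so the gene's own spread between arrays, large for ght5, had no weight in the test. The trend and robust fit added ght1 (−0.28) and ght4 (0.30), which made 2 of the 9 lowered, with 921 lowered genes and 10 raised signalling genes. The median of spots added ght1 (−0.29) and ght4 (0.30), with 2 lowered, and no background correction added ght1 (−0.36) and ght4 (0.31), with 2 lowered. Processed signals added ght1 (−0.67), with 2 of the 9, 1 carbon-source gene and 812 genes lowered, and the deposited ratios added ght1 (−0.95), with 2, 2 and 1138 lowered. Scale normalization added ght4 (0.30). At an adjusted p of 0.10 ght4 (0.30) passed, as did 814 lowered genes and 10 signalling genes. Of all calls 62.8% were rises, against 52.2% with processed signals, 39.7% with the deposited ratios, 84.9% with median centring, 84.3% with spike-in centring and 86.6% against 1.5-fold. The cause of these shifts was not tested where not stated.

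With each array taken alone, which allows no test, ght5 turned to 0.30 without replicate 2 and stood at −1.19 without replicate 1. The lowest and highest values of the others were 2.35 and 2.48 for inv1, 1.62 and 1.64 for fbp1, 0.97 and 1.00 for ght2, 1.24 and 2.01 for ght3, 0.21 and 0.39 for ght4, 0.77 and 1.40 for ght6, −0.50 and −0.33 for ght8 and −0.47 and −0.09 for ght1. Genes at least 2-fold higher numbered 199 to 245 on a single array, against 179 on both, and genes at least 2-fold lower 29 to 34, against 26. No separate paired analysis was made, because each array holds both strains and the ratio tested is already paired. Signal over background limits ght6, whose WT level has only a bound.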
